A study of Homo sapiens with 3 samples.

Results

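Cluster 7 was the group of 887 cells, of 19237 annotated cells, to which the deposited annotation gives the number 7 among its 14 clusters (resolution 0.8). Of its members, 617 were sensitive cells from the coculture (69.6%, 95% exact binomial interval 66.4 to 72.6), 232 were sensitive cells from the monoculture (26.2%), 37 were resistant cells from the coculture (4.17%) and 1 was a resistant cell from the monoculture. The cells were CAMA-1, an estrogen receptor-positive, luminal breast cancer cell line, grown as spheroids from 2000 plated cells and treated with 1 µM ribociclib, an inhibitor of the cyclin D partner kinases CDK4 and CDK6, for 11 days. The sensitive line carried the fluorescent label mVenus and the ribociclib-resistant line mCherry. Spheroids were plated as 100% sensitive cells, as 50% of each line, or as 100% resistant cells, and 1 library was sequenced for each of these 3 compositions. Every group below therefore received the drug, and no untreated cells were compared.

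Each condition had 1 library, so samples could not be tested against each other. Values are given in CPM, the UMIs of a gene summed over a group of cells and scaled to a common total, and as the log2 ratio of 2 such sums with 1 CPM added to each. All intervals and the limits of a count of 0 (3 counts) cover counting error only. Culture, library and condition therefore cannot be told apart. The cell suspensions had been frozen and thawed before capture. The clusters had been made from these same genes, so the differences between clusters describe them and support nothing further.

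A dividing cell copies its DNA in S phase and separates the copies in mitosis after G2. CDK4 and CDK6 act before S phase by phosphorylating RB1, which releases the E2F transcription factors, and E2F targets then supply nucleotides, replication factors and histones. Genes of G2 and mitosis follow later in the cycle, many of them under the DREAM and MuvB complexes, which bind short promoter elements called CHR. Blocking CDK4 and CDK6 holds cells that keep RB1 in G1.

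Nearly all sensitive cells of cluster 7 were in S phase or G2M, and they made up most, but not all, of the sensitive cells in these phases. In the coculture, the deposited phase was S in 283 (45.9%, 41.9 to 49.9), G2M in 331 (53.6%, 49.6 to 57.6) and G1 in 3 of its 617 sensitive cells. In the monoculture it was S in 83 (35.8%, 29.6 to 42.3), G2M in 148 (63.8%, 57.2 to 70.0) and G1 in 1 of 232. The neighbouring cluster 3 was mostly in G1, with 868 of 1087 sensitive cells in the coculture (79.9%, 77.3 to 82.2) and 227 of 267 in the monoculture (85.0%). Cluster 4, which held 1945 of the 3329 sensitive monoculture cells, was at 95.5% in G1.

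The cluster was described from the start by its numbers of cocultured and monocultured sensitive cells, so its share of each library is a description. It took 617 of 2059 sensitive cells of the coculture (29.97%, 27.99 to 32.00) and 232 of 3329 in monoculture (6.97%, 6.13 to 7.89), where the intervals cover the counting of cells and not the spread between cultures. It took 37 of 6292 resistant cells of the coculture (0.588%). Of all sensitive cells called S or G2M, cluster 7 held 614 of 921 in the coculture (66.7%) and 231 of 366 in monoculture (63.1%). By phase it held 61.8% (57.2 to 66.3) of the S cells in the coculture and 47.2% (39.6 to 54.8) in monoculture, and 71.5% and 77.9% of the G2M cells. The next largest holder was cluster 3 in the coculture, with 219 (23.8%), and cluster 4 in monoculture, with 88 (24.0%).

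Outside cluster 7, the S and G2M cells of clusters 3 and 4 had low scores, while the few in the resistant line's cycling clusters did not. The larger of the 2 deposited phase scores had a median of 0.304 over the S and G2M cells of cluster 7 in the coculture, against 0.0384 over those of cluster 3, and of 0.367 against 0.0345 for clusters 7 and 4 in monoculture. It was 0.2803 over 34 such sensitive cells of the coculture in cluster 2 and 0.201 over 10 in cluster 1. When phases were called again after each cell was thinned to 5000 UMIs, 613 of 617 cocultured members (99.4%) were in S or G2M, as were 536 of 1087 sensitive cells of cluster 3 (49.3%). With a score above 0.1 required, these were 586 (94.98%, 92.9 to 96.6) and 68 (6.26%, 4.89 to 7.86). The calls for cluster 7 thus varied little with the rule, while those for cluster 3 varied widely.

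**Figure D1:**
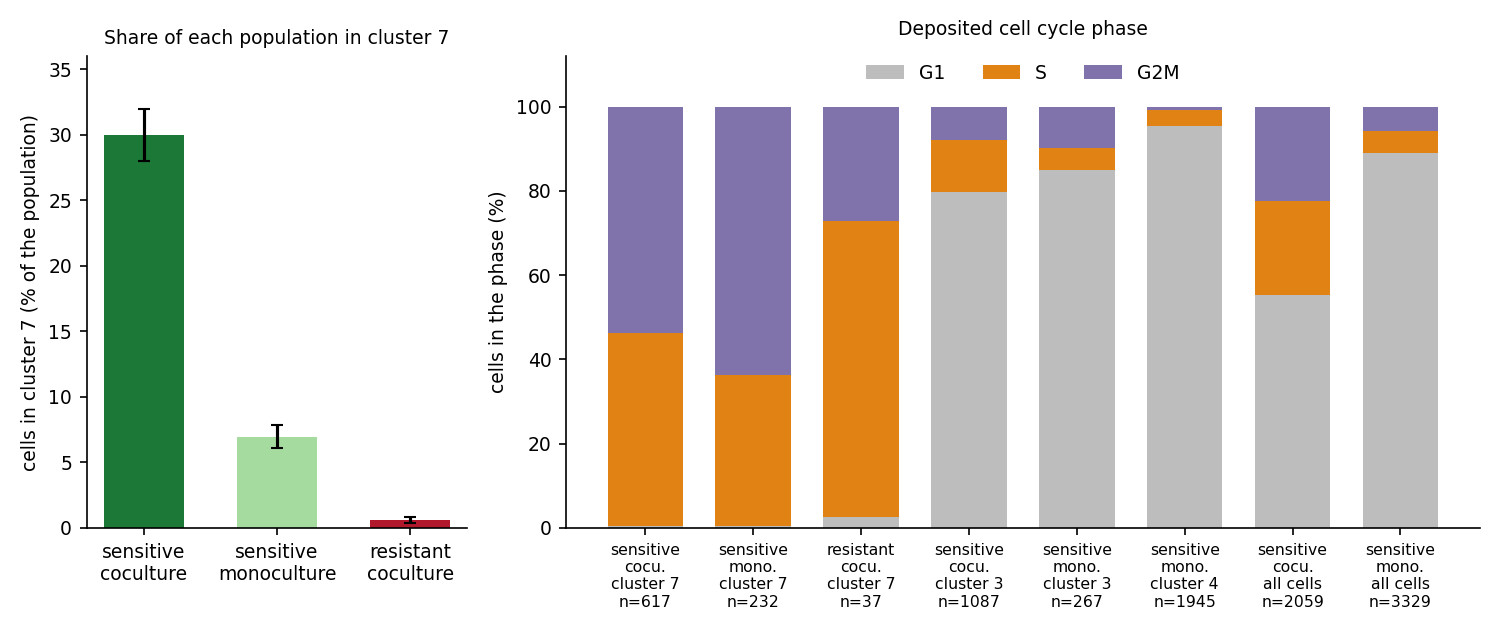
The left panel plots the percent of each population's cells that lay in cluster 7, with 95% exact binomial intervals, and the right panel stacks the percent of cells in G1, S and G2M for clusters 7, 3 and 4 and for all sensitive cells (coc. and mono. in the labels stand for coculture and monoculture). Cluster 7 held 29.97% of cocultured and 6.97% of monocultured sensitive cells, and its bars hold almost no G1, while clusters 3 and 4 are at 79.9% to 95.5% in G1.

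Members were deeper than the cells around them. The median was 37610 UMIs and 5310 genes per cell in the coculture and 38494 UMIs and 5462 genes in monoculture, against 33914 and 31672 UMIs in cluster 3 and 29523 in cluster 4. The mitochondrial share had medians of 15.49% and 18.004% in cluster 7, 17.3% and 19.0% in cluster 3 and 21.3% in cluster 4. The Scrublet score for likely doublets, computed anew, was above 0.25 in 21 of the 617 and 11 of the 232 sensitive members (3.40% and 4.74%), and in 16 of the 1087 of cluster 3 (1.47%). The authors' own scores were not used here. The study's methods state that 2 or more UMIs of a transgene were required, but 232 of the 617 cocultured members had exactly 1 mVenus UMI. Of the 232 members in monoculture, 67 had 0 and 59 had exactly 1. Their part in the differences was not tested beyond leaving them out. The libraries shared 34 to 60 barcodes by pair, none of them within cluster 7.

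The markers matched the line. All 10 markers of luminal, estrogen receptor-positive cells had UMIs in cluster 7, with a summed level of 7773 CPM in the coculture and 7952 CPM in monoculture. Markers of basal, fibroblast, endothelial and immune cells summed to at most 21.0 CPM in the coculture and 47.9 CPM in monoculture. mVenus was at 71.9 CPM and 45.1 CPM in the cocultured and monocultured sensitive members, and mCherry at 0. No annotated cell of the coculture lacked the transgene of its own line. The transgene values there follow from how the lines were told apart and are not separate support. The label of the cluster as a second cocultured sensitive group therefore described its larger part. The phase calls of this part differed from those of the first such group. Whether the cell cycle alone set the groups apart was not tested.

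Short promoter elements mark many genes of the cycle, and 6 promoters of genes higher in cluster 7 are shown as examples. They hold the letters searched for CHR, those searched for E2F, or neither. Each line gives the 200 bases before the RefSeq start (GRCh38.p14), 5′ to 3′ on the gene's strand, with matches in capitals to CHR (TTTGAA), to the CCAAT box or to E2F (TTTGGCGC, TTTCGCGC, TTTCCCGC or TTTGCCGC), each on either strand.
MKI67 (chr10:128126424-128126623, - strand): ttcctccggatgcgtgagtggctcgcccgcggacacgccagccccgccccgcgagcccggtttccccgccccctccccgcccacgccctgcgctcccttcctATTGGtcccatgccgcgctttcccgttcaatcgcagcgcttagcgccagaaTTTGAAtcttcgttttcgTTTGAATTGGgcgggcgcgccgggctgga
TOP2A (chr17:40417897-40418096, - strand): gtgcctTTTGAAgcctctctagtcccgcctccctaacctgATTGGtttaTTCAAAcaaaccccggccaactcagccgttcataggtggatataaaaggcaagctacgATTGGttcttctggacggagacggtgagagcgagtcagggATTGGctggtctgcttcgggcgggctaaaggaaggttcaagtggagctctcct
CDK1 (chr10:60778131-60778330, + strand): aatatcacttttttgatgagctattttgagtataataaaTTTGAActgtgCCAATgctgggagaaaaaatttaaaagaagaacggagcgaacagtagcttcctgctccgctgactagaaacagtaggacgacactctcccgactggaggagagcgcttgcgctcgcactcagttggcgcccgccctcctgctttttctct
TYMS (chr18:657453-657652, + strand): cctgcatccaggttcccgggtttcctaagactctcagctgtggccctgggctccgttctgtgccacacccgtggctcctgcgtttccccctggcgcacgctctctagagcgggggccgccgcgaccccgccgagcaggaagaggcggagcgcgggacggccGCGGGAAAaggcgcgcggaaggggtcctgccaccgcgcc
PCNA (chr20:5126623-5126822, - strand): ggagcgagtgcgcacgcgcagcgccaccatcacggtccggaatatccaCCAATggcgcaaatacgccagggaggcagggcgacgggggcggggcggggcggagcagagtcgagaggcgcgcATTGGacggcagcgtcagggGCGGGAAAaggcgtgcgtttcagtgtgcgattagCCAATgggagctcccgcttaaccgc
CCNB1 (chr5:69166950-69167149, + strand): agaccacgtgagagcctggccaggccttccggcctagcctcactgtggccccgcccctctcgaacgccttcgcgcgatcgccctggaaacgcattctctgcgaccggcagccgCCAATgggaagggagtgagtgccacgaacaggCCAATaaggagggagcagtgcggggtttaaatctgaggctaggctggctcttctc

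MKI67, the proliferation antigen Ki-67, and TOP2A, the topoisomerase that untangles replicated DNA, each had 2 CHR matches here, and CDK1, the mitotic kinase, had 1. TYMS, the thymidylate synthase, and PCNA, the replication clamp, each had 1 E2F match and no CHR. CCNB1 (cyclin B1), which had the highest ratio of G2M over S cells in the coculture, had no match to CHR or E2F in these letters. The same was true of PTTG1, CENPE, ARL6IP1, PSRC1 and CENPF among the genes leading that ratio, while HMMR, PLK1 and DLGAP5 had CHR matches. Only TTTGAA was searched as CHR, so a gene without a match may hold the element in other letters. Among the genes leading on the S side, MCM3, PCNA and GINS2 held an E2F match and HIST2H2AC, SLBP and CLSPN did not. The shown promoters are therefore examples and not typical of every leading gene. CHR lay in 23 of the 45 matched genes of the G2M list (51.1%), against 10.5% of all 27305 promoters of the table and 6.05% of the 5667 matched genes that were measured in the comparison with cluster 3. Of the 478 matched genes higher in cluster 7 than in cluster 3, 66 held CHR (13.8%), 47 an E2F match (9.83%, against 4.02% of measured genes) and 216 a CCAAT box (45.2%, against 32.7%). For the S-phase list only 31 of 41 genes had a promoter in the table, under the 80% required here of a list, so that check is void. RRM2, the leading gene, had 3 CCAAT boxes and neither CHR nor E2F in these letters. The matches describe the sequences only, and whether any of them is bound was not tested.

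Against cluster 3 in the same library, cluster 7 carried higher levels of the genes of S phase, of G2 and of mitosis, and lower levels of most measured keratins and of single genes such as NEAT1. Over the 6747 genes whose mean reached 10 CPM, 572 (8.48%) were higher in cluster 7 by a log2 ratio of at least 0.5 and 108 (1.6%) were lower, and the median over all of them was 0.05. Of the S-phase list, 32 of 33 measured genes were higher and none was lower (median log2 ratio 1.61), and of the G2M list, 49 of 51 were higher and none lower (median 1.92). These are the lists commonly used to call the phase, so their direction follows from the phase make-up and is not a separate result.

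Where the mean of both groups reached 50 CPM, the leading gene was RRM2, the small subunit of ribonucleotide reductase, which makes deoxynucleotides. It had 139.8 CPM in cluster 7 of the coculture (95% Poisson interval 135 to 145) and 11.03 in cluster 3 (95% Poisson interval 9.98 to 12.2), with 155 and 11.2 in the same clusters of the monoculture and 3.19 in cluster 4. The gene lies on chromosome 2 at positions 10260825 to 10351851 of GRCh37. Thinned to 5000 UMIs, 45.1% of cocultured members (41.1 to 49.1) had at least 1 RRM2 UMI, against 4.42% of cells in cluster 3 (3.27 to 5.81) and 1.23% in cluster 4 (0.792 to 1.83). At full depth these were 90.9%, 23.6% and 5.55%.

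HMGB2, a chromatin protein of dividing cells, came next, with 170.1 CPM in cluster 7 and 14.03 in cluster 3 (log2 ratio 3.51). HIST1H4C, a replication-dependent histone H4 gene (chromosome 6, positions 26104161 to 26104565), was the most abundant of the leading genes, at 1471 CPM against 164 (ratio 3.16). NUSAP1, a spindle protein, was at 312 and 34.9 CPM. MKI67 was at 156 and 18.5 CPM, and TYMS at 113 and 14.1 CPM. Genes of replication and of mitosis thus stood side by side at the head of the order.

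The other 6 of the 12 leading genes act mainly in G2 and mitosis. HMMR, a spindle-associated hyaluronan receptor, was at 109 CPM in cluster 7 and 13.7 in cluster 3, TOP2A at 481 and 72.2, and UBE2C, the ubiquitin-conjugating enzyme of the anaphase-promoting complex, at 328 and 56.3. CDK1 was at 119 and 23.6 CPM, AURKA, a spindle pole kinase, at 155 and 32.2, and PRC1, a midzone protein, at 109 and 22.97. The log2 ratios of these 6 genes ran from 2.19 (PRC1) to 2.90 (HMMR).

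**Figure D2:**
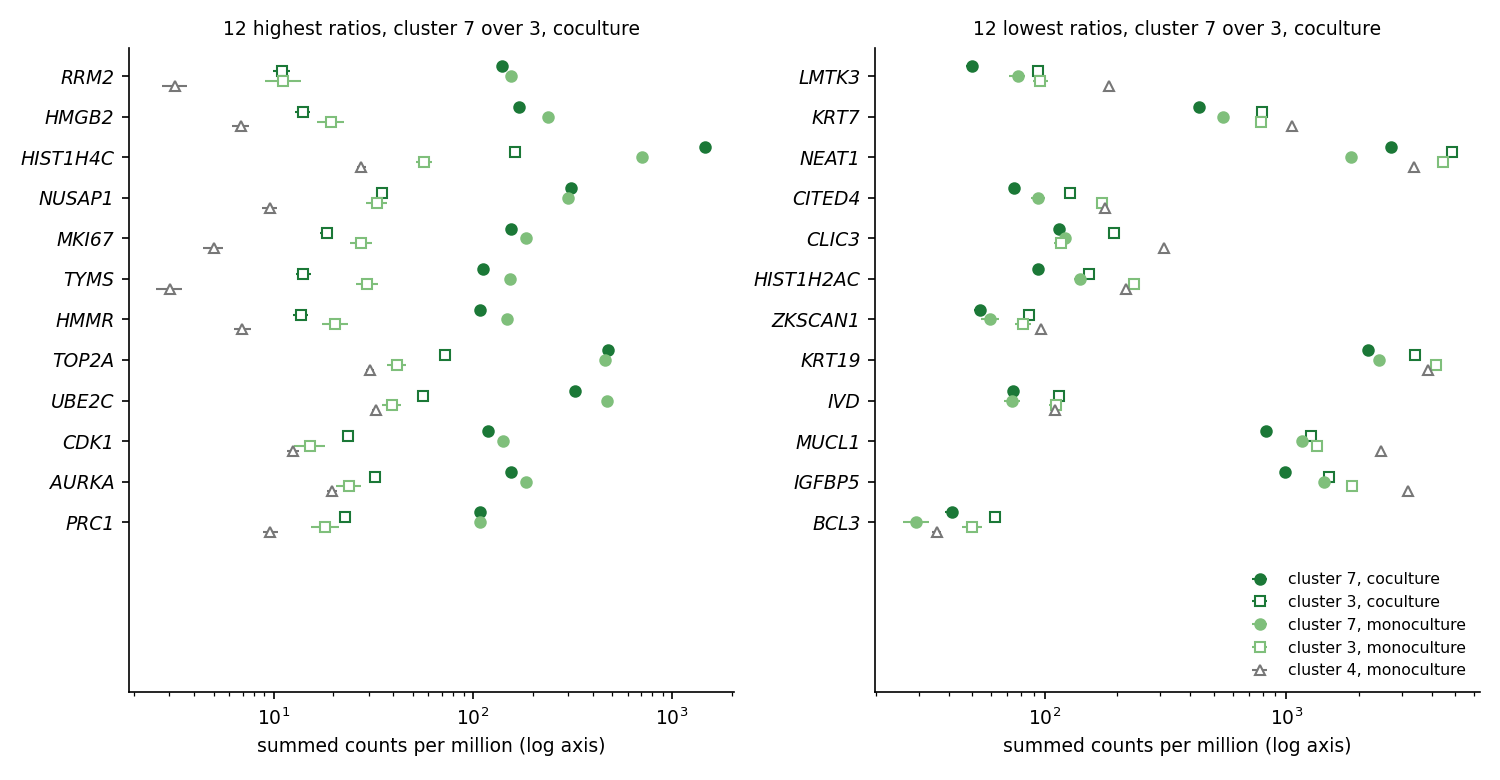
The summed CPM (log axis) of the 12 genes with the highest and the 12 with the lowest log2 ratio of cluster 7 over cluster 3 in the coculture is plotted for 5 groups of sensitive cells, with 95% Poisson intervals where they are wider than the symbols. In the left panel the filled symbols of cluster 7 lie above every open symbol in both libraries, and in the right panel the cocultured cluster 7 lies below cluster 3.

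The controls of the G1 to S step were higher in part. Of 16 measured genes of that list, 8 were higher in cluster 7 and none lower, against 8.48% and 1.6% of all genes. CCNE2, a cyclin E that partners CDK2 at the start of S phase, was at 27.1 CPM against 2.54, CCNA2 (cyclin A2) at 52.6 against 5.97, and RBL1, the pocket protein p107, at 16.2 against 4.49. E2F1 was at 41.9 against 19.8 CPM (ratio 1.05).

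Genes of the drug's pathway differed less. CDK4, a target, was at 173 CPM in cluster 7 and 113 in cluster 3 of the coculture, which passed the ratio. At 175 and 126 CPM in monoculture it did not pass. CCND1 (cyclin D1) was at 1431 and 1645, and RB1 at 26.95 and 21.1 CPM in the coculture. CDK6 was at 0.130 CPM in cluster 7 of the coculture, which is the limit of a count of 0 there, so no difference could be read. ESR1, the estrogen receptor, was at 19.998 and 21.1 CPM. Of the 31 measured estrogen-induced genes, none was higher and 4 were lower in cluster 7 (median -0.09), against 1.6% of all genes, namely TFF3 at 292 against 418 CPM, IGFBP5 at 985 against 1504, HSPB8 at 23.8 against 35.9 and SUSD3 at 89.9 against 129. Within phase none was higher. In S cells 3 of 32 were lower (HSPB8, SUSD3 and CISH, list median -0.15), against 1.6% of all genes. In G2M cells 3 of 31 were lower (TFF3, XBP1 and SUSD3, list median -0.12), against 2.54% of all genes. IGFBP5 passed in neither phase.

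Of 13 heat shock genes 6 were higher, with a median of 0.48, against 8.48% of all genes, but within S cells none passed (median -0.01) and within G2M cells 2 did (median 0.11). HSPA8, the constitutive HSP70, was at 694 CPM in cluster 7 and 445 in cluster 3, and the inducible HSPA1A at 337 and 219, but in monoculture HSPA1A was at 429 and 421, and 2 of the 13 genes were higher (median 0.03). Of 29 MYC targets, 4 were higher (median 0.18), but none was higher within S cells (1 lower, median 0.03) or within G2M cells (2 lower, median -0.09). The highest ratio of the list was that of CAD, the enzyme that starts pyrimidine synthesis, at 18.3 and 11.03 CPM. PHGDH, the first enzyme of serine synthesis and a member of the ATF4 list, was at 37.7 and 12.7 CPM in the coculture and at 68.3 and 28.99 in monoculture. MT2A, a metallothionein that binds zinc, was at 656 and 294 CPM, and 1 of 3 measured metallothioneins passed the ratio, while none of 4 did within S cells (median 0.04).

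Among the genes lower in cluster 7, 5 of 7 measured keratins were lower, with a median of -0.65, against 1.6% of all genes. KRT7 was at 435 CPM in cluster 7 and 795 in cluster 3 (ratio -0.87), and KRT19 (chromosome 17, positions 39679869 to 39684560) at 2173 and 3407 (ratio -0.65). KRT81 was lowest in ratio, at 10.7 and 26.2 CPM. In monoculture 5 of 6 were lower, with a median of -0.70, against 2.65% of all genes. Within phase 4 of 7 were lower in S cells, against 1.6% of all genes. In G2M cells 4 were lower and 1 was higher, against 2.54% and 7.82% of all genes.

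NEAT1, the long non-coding RNA that builds nuclear paraspeckles (chromosome 11, positions 65190245 to 65213011), was at 2719 CPM in cluster 7 and 4846 in cluster 3 of the coculture, and at 1849.8 and 4469 in monoculture. Its log2 ratios were -0.83 and -1.27. Of the 7 measured RNAs of that list, 2 were lower in the coculture (median -0.37) and 3 in monoculture (median -0.39), against 1.6% and 2.65% of all genes. MALAT1, another such RNA, was at 28465 and 36743 CPM in the coculture.

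The other genes with the lowest ratios were LMTK3, a kinase (50.1 CPM in cluster 7, 93.8 in cluster 3), CITED4, a coactivator-binding protein (74.6 and 128), and CLIC3, a chloride channel protein (115 and 193). ZKSCAN1, a zinc finger protein, was at 54.04 and 85.8 CPM, IVD, an enzyme of leucine breakdown, at 73.7 and 114, and BCL3, an NF-kappa-B cofactor, at 41.2 and 62.4. In monoculture CLIC3 did not share the direction, with 121 CPM in cluster 7 and 117 in cluster 3.

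Histone genes differed in both directions, within the H4 and the H2A genes alike. HIST1H4C and HIST2H2AC (52.9 against 12.1 CPM) were higher in cluster 7, while HIST1H2AC (93.9 against 153) and HIST1H4H (18.04 against 42.6) were lower, so that 2 of 10 were higher and 5 lower, against 8.48% and 1.6% of all genes. Within S cells 5 of 11 were higher and none lower (median 0.39), against 6.15% and 1.6% of all genes. Within G2M cells 1 of 10 was higher and 4 lower (median -0.41), against 7.82% and 2.54%. The kit primes on poly(A), which most replication-dependent histone mRNAs lack, and their counts are uncertain for that reason as well as for near-identical copies.

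Between clusters 7 and 3 of the coculture, the medians of the remaining lists ran from -0.14 to 0.13. The medians were -0.07 over 81 cytosolic ribosomal protein genes, -0.14 over the 13 mitochondrially encoded genes, -0.03 over 77 nuclear respiratory chain genes, 0.08 over 34 proteasome genes, -0.05 over 26 lysosomal genes and 0.05 over 18 chaperones of the endoplasmic reticulum. They were 0.11 over 13 glycolytic genes, -0.03 over 21 cholesterol synthesis genes, -0.01 over 14 interferon-stimulated genes, 0.03 over 17 immediate early genes and -0.09 over 14 hypoxia-induced genes. Over 19 ATF4 targets the median was 0.13, over 10 p53 targets 0.00, over 9 mesenchymal and adhesion genes -0.05 and over 8 secretory genes -0.08. At most 2 genes of each of these lists passed the ratio in either direction, against 8.48% of all genes higher and 1.6% lower, and 2 of the 10 p53 targets were lower.

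In monoculture, the same comparison gave 657 of 6866 genes higher in cluster 7 than in cluster 3 (9.57%) and 182 lower (2.65%). Of the S-phase list 32 of 33 genes were higher (median 2.15), as were 51 of 53 G2M genes (median 2.45), and none was lower. The highest ratio was that of FAM111B, a protease of replicating cells, at 105 CPM in cluster 7 and 2.97 in cluster 3, against 70.6 and 4.81 in the coculture. PLK1, the mitotic polo kinase, followed at 109 and 7.37 CPM, and then RRM2, HIST1H4C and HMGB2. Besides NEAT1 and CITED4, the lowest were B4GALT1, a galactosyltransferase (46.1 and 98.6 CPM), NCBP2AS2 (37.5 and 72.8) and the hypoxia-induced ANKRD37 (78.2 and 144).

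Against cluster 4, the main G1 cluster of the monoculture, more genes differed. Of 6889 genes, 932 (13.5%) were higher in the monocultured members of cluster 7 and 473 (6.87%) lower. TYMS was highest, at 155 against 3.01 CPM, with RRM2, MKI67 (186 against 4.99), HMGB2 and FAM111B behind it. Here 9 of 13 heat shock genes were higher (median 0.66) and 11 of 28 MYC targets (median 0.41), among them ODC1, which makes polyamines, at 114 against 44.4 CPM. Lower were the non-coding LINC02303 (27.7 against 93.8), S100A1, a calcium-binding protein (92.5 against 263), HIST1H4H, CLIC3 and SRCAP, a chromatin remodeller (29.6 against 74.2).

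Clusters 7 and 3 of the coculture were also set side by side among cells given the same phase, which does not match them in the cycle. The median S score of S cells was 0.270 in cluster 7 and 0.0487 in cluster 3, and the median G2M score of G2M cells was 0.358 and 0.0267. Among S cells, 414 of 6731 genes (6.15%) were higher in the 283 members of cluster 7 than in the 134 of cluster 3, and 108 (1.6%) were lower. Among G2M cells, 526 of 6728 (7.82%) were higher in the 331 members than in the 85 of cluster 3, and 171 (2.54%) were lower. Cycle genes were among them, as the gap in scores entails. RRM2 was at 176 CPM in S cells of cluster 7 and 35.3 in those of cluster 3, and PLK1 at 129.8 and 21.01 CPM in the G2M cells. Of the G2M list, 47 of 54 genes were higher among G2M cells (median 1.44), and of the S-phase list, 36 of 38 among S cells (median 1.06).

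MUCL1, a secreted mucin-like protein, had the opposite direction within phase. Over all sensitive cells of the coculture it was at 826 CPM in cluster 7 and 1264 in cluster 3, which placed it among the lowest ratios. In S cells it was at 802 and 566 CPM and in G2M cells at 846 and 386, higher in cluster 7 in both. The G1 cells of cluster 3 had 1474 CPM. KRT19 was lower in both phases, at 2466 and 3565 CPM in S cells and 1920.5 and 3161 in G2M cells. NEAT1 was lower in G2M cells, at 2455 and 4301 CPM, and in S cells, at 2976 and 4141 CPM, its log2 ratio of -0.48 did not reach 0.5 in size. None of the 7 RNAs of its list passed in S cells, and 3 were lower in G2M cells, against 2.54% of all genes.

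Cluster 7 itself was made of S and G2M cells. In the coculture, 229 of 6799 genes were higher in G2M than in S cells (3.37%) and 220 lower (3.24%). CCNB1 (cyclin B1) led, at 439 CPM in G2M and 77.4 in S cells, with PTTG1, the securin that inhibits separase until anaphase, at 661 and 147 CPM. CENPE, a kinetochore motor, was at 92.9 and 19.995 CPM, and AURKA at 242 and 54.4. Of cells thinned to 5000 UMIs, 81.6% of the G2M members (77.0 to 85.6) and 30.7% of the S members (25.4 to 36.5) had a CCNB1 UMI, and 27.8% of cells in cluster 3 did.

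Of 11 measured histones, 7 were lower in G2M than in S cells and 1 was higher, against 3.24% and 3.37% of all genes. HIST1H4C was at 2685 CPM in S and 444 in G2M cells, and in single cells its median was 93 UMIs (quartiles 52 and 138) against 9 (2.50 and 21.5). FAM111B was at 125 and 24.6 CPM, the helicase subunits MCM5 at 98.6 and 20.8 and MCM3 at 250.3 and 99.2, and PCNA at 187 and 74.7. SLBP, which binds the stem-loop of histone mRNAs, was at 91.4 and 36.2 CPM. RRM2 and TYMS were high in both phases, RRM2 at 176 and 109.7 CPM and TYMS at 107 and 118.

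Outside the cycle lists, MT2A differed between the phases. It was at 869 CPM in G2M and 407 in S cells of the coculture, at 556 and 199.9 in monoculture, and in resistant cells at 1185 in the G2M cells of cluster 2 and 443 in the S cells of cluster 1. HSPA1A was at 413 and 248 CPM, and 4 of 13 heat shock genes were higher in G2M (median 0.32), against 3.37% of all genes. The monoculture gave 509 of 6889 genes higher in G2M (7.39%) and 380 lower (5.52%), with HMMR first at 219.7 and 29.7 CPM and CCNB1 at 558 and 80.8. Its S group held only 83 cells, and the part of that smaller size in the larger counts was not tested.

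**Figure D3:**
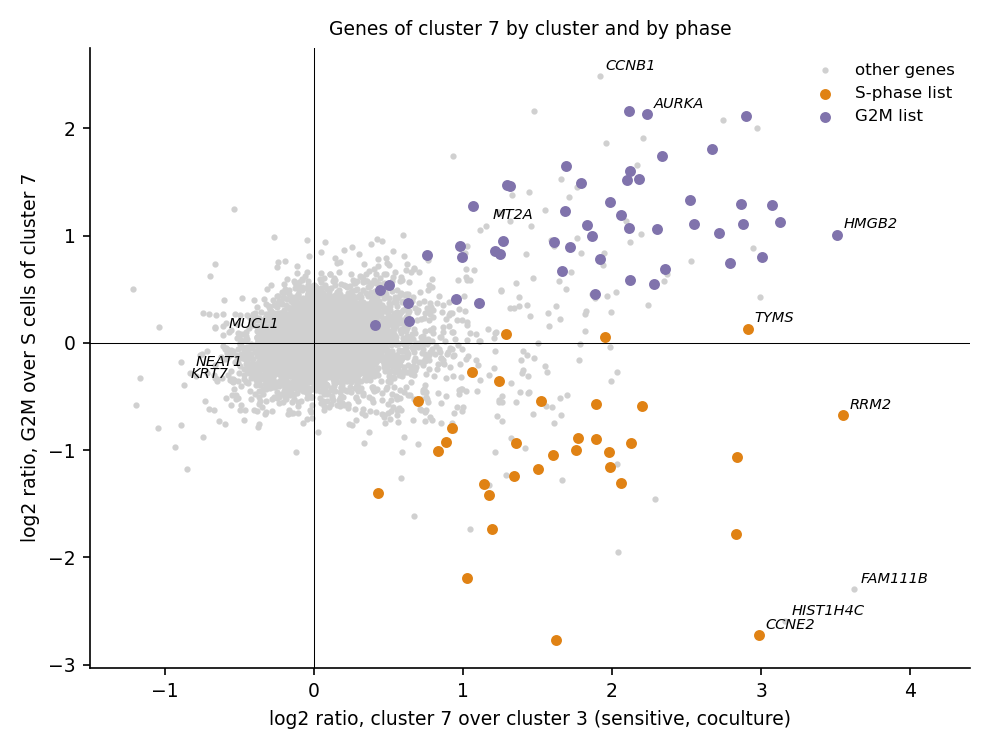
Each point is a gene, placed by its log2 ratio of cluster 7 over cluster 3 in cocultured sensitive cells (horizontal) and of G2M over S cells within cluster 7 (vertical), with the S-phase list in orange, the G2M list in purple and other genes in grey. The S-phase list lies mostly below the horizontal line and the G2M list above it, while both lie to the right. Among genes measured between G2M and S cells, 33 of 38 S-phase genes were lower past the ratio and 47 of 54 G2M genes higher. Not all of these are drawn, since drawn genes also needed a mean of 10 CPM over clusters 7 and 3.

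The cocultured and the monocultured members of cluster 7 were compared directly, a comparison in which the composition of the spheroid and the library cannot be told apart. Of 6871 genes, 202 were higher in the coculture (2.94%) and 388 lower (5.65%), and the median over all was -0.07. With edgeR's TMM scaling the split was 309 higher and 231 lower, so the balance of the 2 directions depends on the scaling. The genes with the 5 highest and 5 lowest ratios were TFF3, ATP5ME, RPS27, PEG10 and TFF1, and FABP7, S100A1, STC2, ID1 and ID3, none of which is on the S-phase or G2M list. The histone HIST1H4C also differed, with a log2 ratio of 1.06.

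FABP7, a fatty acid-binding protein (chromosome 6, positions 123100861 to 123105219), had the lowest ratio among genes at 50 CPM or more, at 273 CPM (95% Poisson interval 267 to 280.2) in cocultured and 1211 (95% Poisson interval 1189 to 1235) in monocultured members. Of cells thinned to 5000 UMIs, 37.6% (33.8 to 41.6) and 69.4% (63.0 to 75.3) had a FABP7 UMI. FABP7 was lower in the coculture in cluster 3 too, at 276 and 948 CPM. Resistant cells, which had 0.446 CPM in S cells of their monoculture, had 6.86 in those of the coculture.

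Lower in the coculture were also S100A1 (29.2 against 92.5 CPM, but 38.4 against 49.7 in cluster 3), STC2, a secreted glycoprotein (32.9 against 98.9), and the helix-loop-helix inhibitors ID1 (281 against 628) and ID3 (382 against 852), targets of BMP signalling. ID2 was at 51.3 against 97.9 CPM. The same direction held in S cells, with ID1 at 282 against 672 CPM, and in G2M cells, at 280.0 against 603. It was not shared by resistant cells, whose ID1 was at 366 CPM in S cells of the coculture and 293 in those of the monoculture.

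TFF3, a trefoil peptide induced by estrogen (chromosome 21, positions 43731777 to 43735519), had the highest ratio among genes at 50 CPM or more, at 292 CPM in cocultured and 80.5 in monocultured members. Its relative TFF1 was at 4365 and 1921, and PGR, the progesterone receptor, at 33.8 and 10.02 CPM. Of the 30 measured estrogen-induced genes, 4 were higher and 3 lower, with a median of 0.04, against 2.94% and 5.65% of all genes, so most of the list did not follow TFF3. Resistant cells in S phase had 371 CPM of TFF3 and 6352 of TFF1 in the same coculture, more than the sensitive members. MGP, a matrix protein abundant in resistant cells (6937 CPM), was at 749.5 CPM in cocultured and 418 in monocultured members. The part of free RNA from resistant cells in these values was not tested.

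The housekeeping genes with high ratios were RPS27, a ribosomal protein (6796 against 2938 CPM), ATP5ME, a subunit of ATP synthase (1069 against 453), and, just behind, RPL37A (3221 against 1593). PEG10, a retrotransposon-derived gene, was at 75.2 against 32.2 CPM. Of 81 ribosomal protein genes, 14 were higher and 1 lower (median 0.16), against 2.94% and 5.65% of all genes. In resistant S cells of the coculture and of their monoculture RPS27 was at 7517 against 5599 CPM, and ATP5ME at 1053 against 683, with log2 ratios of 0.42, which is under 0.5, and 0.62.

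Over all members, no gene of the phase lists was higher in the coculture. Of 36 S-phase genes, none was higher and 2 were lower (median -0.13), and of 54 G2M genes, none was higher and 9 were lower (median -0.23), against 5.65% of all genes lower and a median of -0.07. The S-phase count was thus at the share of all genes. UBE2C was among the lower genes, at 328 against 475 CPM, and AURKA, at 155 against 186, did not pass. HIST1H4C went the other way, at 1471 against 705 CPM, and did so in cluster 3, at 164 against 56.9, and in G2M cells, at 444 against 194. It was also higher in the coculture in resistant G2M cells of cluster 2, the 1 of 6 measured histones to pass the ratio there. The histone list did not follow it over all members, where 2 of 11 were higher and 5 lower (median -0.44), against 2.94% and 5.65% of all genes. In S cells 1 of 11 histones was higher and 6 lower, against 4.48% and 6.67% of all genes. In G2M cells 2 of 9 were higher and 4 lower, against 3.63% and 7.23%.

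Since the monoculture's members were more often in G2M, the comparison was repeated by phase. Among S cells, 306 of 6824 genes were higher in the coculture (4.48%) and 455 lower (6.67%), and among G2M cells 249 of 6862 (3.63%) and 496 (7.23%). In S cells, 1 of 40 S-phase genes was higher and 3 lower (median -0.24), and 1 of 51 G2M genes was higher and 2 lower, with a median over all genes of -0.06. In G2M cells, none of the 54 G2M genes was higher and 7 were lower (median -0.18), with a median over all genes of -0.08. Of 31 S-phase genes measured in G2M cells, none was higher and 4 were lower (median -0.20), against 7.23% of all genes lower. The interferon-stimulated genes IFI6, ISG15 and IFITM2, of 15 measured, were higher over all members, against 2.94% of all genes, with IFI6 at 31.4 against 10.6 CPM and ISG15 at 51.5 against 27.2. The metallothionein MT1X was at 171 against 86.8 CPM.

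**Figure D4:**
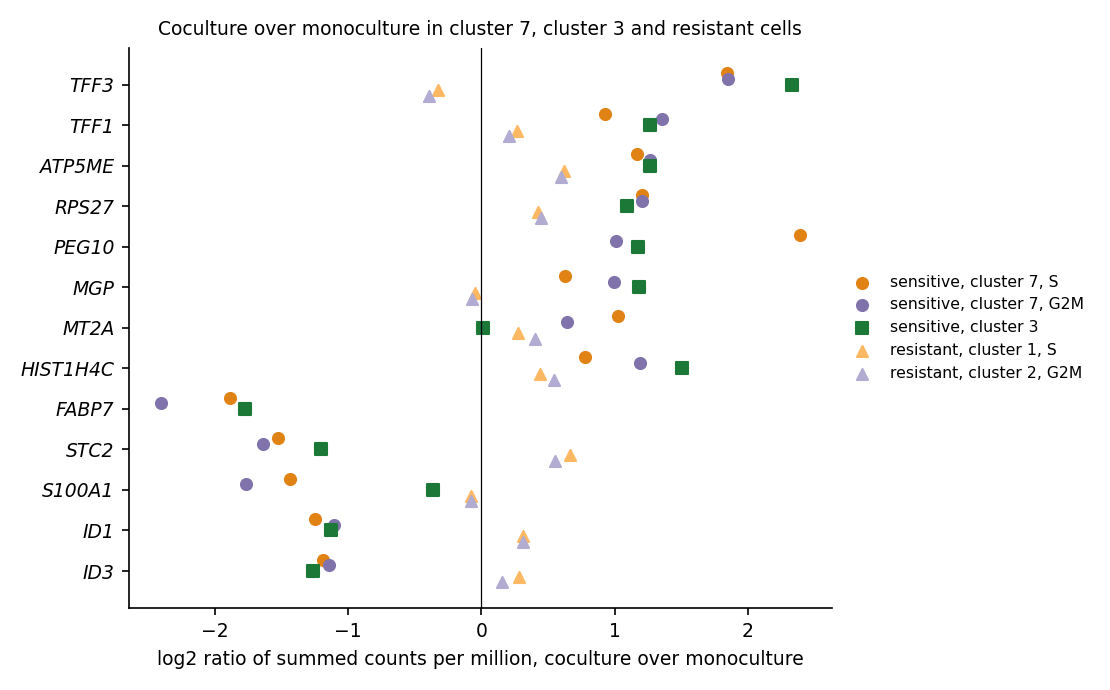
The log2 ratio of coculture over monoculture is plotted for 13 genes in the S and G2M members of cluster 7, in cluster 3 and in resistant S and G2M cells (FABP7 and PEG10 are left out for resistant cells, which hardly express them). FABP7, STC2, ID1 and ID3 lie left of 0 in all 3 groups of sensitive cells and right of it or undrawn in resistant cells, while RPS27 and ATP5ME lie right of 0 in every group.

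Resistant cells of the same library that were given the same phase offered a second reference, which does not match the cells in the cycle. The median S score of S cells was 0.270 in cluster 7 and 0.233 in the resistant cells of cluster 1. The median G2M score of G2M cells was 0.358 in cluster 7 and 0.373 in the resistant cells of cluster 2. Cluster 1 held 57.0% of the coculture's resistant S cells, and cluster 2 held 64.1% of its resistant G2M cells. Between the 283 S members and the 927 resistant S cells of cluster 1, 435 of 6756 genes were higher in the sensitive cells (6.44%) and 248 lower (3.67%), and between the 331 G2M members and the 987 resistant G2M cells of cluster 2, 254 of 6821 (3.72%) and 292 (4.28%). The lists used to call phases differed little, but histones did. Of the 54 G2M genes, none passed the ratio in either direction in G2M cells (median -0.02), and of 40 S-phase genes, 4 were higher in the sensitive S cells (median 0.09), led by RRM2 at 176 against 73.1 CPM. Of 49 G2M genes measured in S cells, 5 were higher in the sensitive cells and none lower (median 0.13). Of 31 S-phase genes measured in G2M cells, 2 were higher and 1 lower (median -0.02). Of the measured replication-dependent histones, 7 of 10 were higher in the sensitive S cells (median 0.64) and 6 of 9 in the sensitive G2M cells (median 0.77), and none was lower.

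Single genes also differed between the lines. FABP7 was at 325 CPM in sensitive and 6.86 in resistant S cells, SNCG, gamma-synuclein, at 320.2 against 86.3, TMSB4X, thymosin beta 4, at 2138 against 659, and AGR2, a disulfide isomerase of secretory cells, at 302 against 96.5. MGP was at 679 against 6937 CPM, NME4, a mitochondrial nucleoside diphosphate kinase, at 53.5 against 229, and FGFR4, a growth factor receptor, at 28.8 against 76.1. Of 15 interferon-stimulated genes, 8 were higher and 1 lower in the sensitive G2M members (median 0.52), against 3.72% and 4.28% of all genes. Of 29 MYC targets, 5 were higher in the S members and 4 in the G2M members (medians 0.25 and 0.16), against 6.44% and 3.72% of all genes, and none was lower.

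The profile of cluster 7 as a whole was compared with each population and cluster of at least 50 cells, over the 2295 genes at 50 CPM or more, by the root mean square of the log2 differences. The cocultured members were closest to the cocultured resistant cells of cluster 2, the G2M cluster of that line (0.306), then to the monocultured members of cluster 7 (0.312), and stood at 0.354 from cluster 3 of their own population. Leaving out the S-phase, G2M and histone genes kept 2269 of the 2295 genes, so genes of the cycle outside these lists stayed in. The order then turned, with cluster 3 of the cocultured sensitive cells nearest (0.290). Next came cluster 3 of the cocultured resistant cells (0.296) and their cluster 2 (0.300). The groups differ in size and depth, and no test of the order was possible.

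The same profiles can be placed on the line from all sensitive monoculture cells (0) to all resistant monoculture cells (1). The cocultured members lay at 0.671 and the monocultured members at 0.420, against 0.413 and 0.231 for cluster 3. Over the 2269 genes left without the S-phase, G2M and histone genes, the cocultured and monocultured members lay at 0.619 and 0.357. Genes of the cycle outside these lists were still counted. The order of the 4 groups was the same over the 2269 genes, except that monocultured cluster 7 (0.357) then lay below cocultured cluster 3 (0.431). Of the resistant monoculture cells 50.0% were in S or G2M, against 11.0% of the sensitive ones, so the line holds phase as well as lineage.

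**Figure D5:**
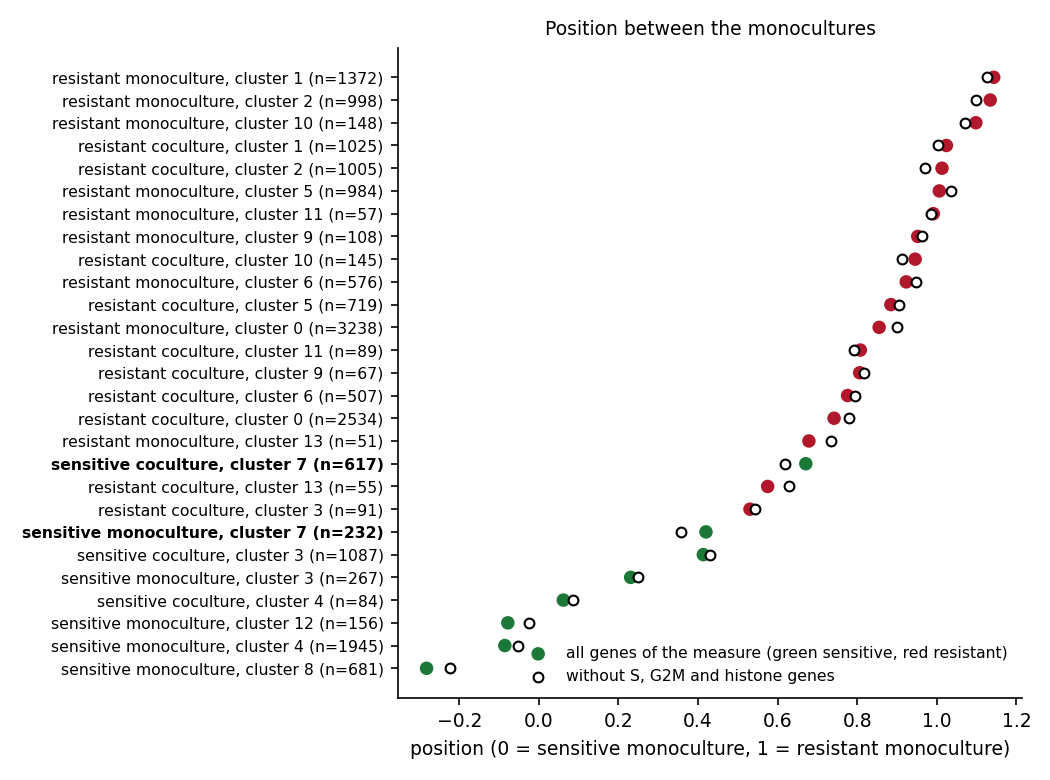
The position of each population and cluster of at least 50 cells between the 2 monocultures is plotted, filled over all 2295 genes of the measure (green for sensitive, red for resistant) and open without the S-phase, G2M and histone genes. Cocultured cluster 7 lies at 0.671, farther along than any other sensitive group, and the monocultured members lie at 0.420.

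The 37 resistant members of the coculture were less clear. Their median was 1 mCherry UMI, with exactly 1 in 24 of the 37 (64.9%), against 2360 of all 6292 resistant cells of the coculture (37.5%), and 9 of the 37 had a doublet score above 0.25 (24.3%). Their summed profile was closest to the sensitive cocultured members (0.185). MGP was at 1632 CPM in them, between 749.5 in the sensitive members and 6937 in resistant S cells, and FABP7 was at 169 CPM against 273 and 6.86. NME4 was at 122 CPM, between 53.95 and 229. Whether these cells are resistant cells, sensitive cells with stray mCherry RNA or doublets was not tested, and they were left out of every sum above.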

How the data were processed

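CAMA-1 spheroids of 3 compositions were profiled by droplet single-cell RNA sequencing, with 1 library each. Per the labels and the study's methods, the authors aligned reads with Cell Ranger 3.0.2 to GRCh37 and deposited raw UMI counts per gene and cell, together with a cell annotation. The annotation holds cluster, phase and population labels, a percent of mitochondrial UMIs computed by the authors, and S and G2M scores deposited by the authors. The deposited annotation selected cells and named clusters and phases, and no cells were clustered again. It keeps cells with fewer transgene UMIs than the stated filter allows. The annotation's other 8 columns were not used. The 3 matrices hold 8643, 20227 and 11502 barcodes, and rows without a gene symbol took 0.523% to 0.591% of UMIs and were left out.

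Raw counts were summed by population, cluster and phase, scaled to CPM and compared as log2 ratios with 1 CPM added. Genes needed a mean of 10 CPM over both groups to be measured, and a log2 ratio of at least 0.5 in size counted as a difference. Count intervals are exact Poisson and shares exact Clopper-Pearson, at 95%. The named genes were the 12 highest and 12 lowest ratios of cluster 7 over cluster 3 in the coculture where the mean reached 50 CPM, the 5 highest and lowest of the other comparisons, the 3 largest of each list and genes of the drug's pathway. Other genes were named after their values were seen. Members, gene lists and rules were chosen with earlier results of these data known. Doublets were scored with Scrublet in scanpy 1.11.5 and kept. Scripts (Python 3.11.15, numpy 2.4.6, scipy 1.17.1, pandas 2.3.3) were tested on simulated data. TMM factors came from edgeR. Promoter sequences are from RefSeq (GRCh38.p14) and gene positions from GENCODE on GRCh37. Alternatives changed the pseudocount, filters, depth, scaling, phase and cells.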

Additional observations from a re-analysis of the deposited data

How the results depend on the processing

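The counts of genes past the log2 ratio depended on the filters, and some directions did too. For cluster 7 over cluster 3 in the coculture (572 higher and 108 lower), the counts were 380 and 35 with 10 CPM added, 180 and 20 at a mean of 50 CPM, 914 and 354 with a minimum of 50 UMIs in place of CPM, and 208 and 6 at a log2 ratio of 1. The lower genes numbered 250 after thinning, 171 in G2M cells and 69 with S and G2M cells weighted equally. For the same clusters in monoculture (657 and 182), these 4 settings gave 429 and 62, 179 and 27, 1025 and 469, and 251 and 14, with 1118 and 540 after thinning and 338 lower with 2 or more transgene UMIs. For the cocultured over the monocultured members (202 and 388), they gave 114 and 161, 89 and 143, 482 and 662, and 23 and 22, with 309 and 231 under TMM scaling, 454 and 880 after thinning, and 306 higher in S cells. For cluster 7 over cluster 4 (932 and 473), the lower count was 214 with 10 CPM added and 723 after thinning, and the others gave 364 and 108, 1461 and 1133, and 320 and 49. MUCL1 had a log2 ratio over cluster 3 of 0.50 in S cells, 1.13 in G2M cells and 0.79 with both weighted equally. The median of the replication-dependent histones over cluster 3 turned from -0.42 to 0.39 in S cells, and that of the MYC targets from 0.18 to -0.09 in G2M cells. The histone median of the cocultured over the monocultured members turned from -0.44 to 0.18 with the minimum of 50 UMIs.

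The share of cocultured members in S or G2M was 94.98% after thinning with a score above 0.1, and their G2M share was 60.3% with 2 or more mVenus UMIs. The monocultured share was 100% with phases called again at full or thinned depth or with 2 or more mVenus UMIs. The positions without the S-phase, G2M and histone genes were 0.619 and 0.357. Elsewhere the cause of a shift was not tested. Weighting by G1 cells was not run, since the members held 3 and 1 of them. With 1 library per condition, no library could be left out. No paired analysis was possible because each condition is 1 library and the results come from no test.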
